A study of Mus musculus with 6 samples.

Results

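Ovary was compared with testis at 3 stages to find the autosomal genes that stood on the same side of the comparison at every age. Of 17516 autosomal genes on the arrays, 3591 had the same direction at all 3 stages, and 57 did so by 2-fold or more each time. These 57 genes, 24 higher and 33 lower in ovary, are the subject of what follows. The groups were ovary and testis of C57BL/6 mice, an inbred strain. Fetal gonads were taken 15.5 days postcoitum, neonatal gonads on day 1, and adult gonads at an age of 10 weeks. Each group was 1 Affymetrix array of total RNA from whole gonads, no animal carried a mutation or treatment according to the labels, and the number of animals behind an array was not given in the sources used here. By its title, the series looked for genes needed in meiosis I for chromosome segregation.

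A gonad becomes a testis when its supporting cells turn into Sertoli cells, under the control of Sry and Sox9, and an ovary when they turn into granulosa cells, under the control of Foxl2 and of Wnt signalling through Rspo1 and Wnt4. Sertoli cells enclose the germ cells in cords and induce Leydig cells, which make androgen. Germ cells follow their surroundings: in the ovary they enter meiosis before birth, while in the testis retinoic acid is broken down and meiosis waits until after birth. An adult testis is filled with spermatocytes and spermatids, and an adult ovary with follicles and corpora lutea, so the makeup of the organs diverges with age. In whole organs, fewer cells of a type and less RNA per cell cannot be told apart.

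Signals were scaled so that all arrays had the same 2% trimmed mean, and values under the median of all signals, 75.3, were raised to that floor. A ratio against an array at the floor is a lower bound and is written as at least N-fold. With 1 array per group no ratio has a replicate error, so the spread between different probe sets of the same gene was used as a partial guide. That SD of a log2 ratio was 0.16 in fetal gonads (4721 pairs of probe sets), 0.28 in neonatal gonads (4502 pairs) and 0.63 in adult gonads (3713 pairs). It covers no variation between animals. It also leaves out error shared by a whole array, since both probe sets were read on the same arrays. Only probe sets above the floor in both gonads were used, so ratios at the floor are not covered. A 2-fold ratio is 1 on the log2 scale.

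The sex of every array showed in its own values. Xist, which coats the inactive X of females, was 54.3-fold or more higher in fetal ovary, 24.7-fold in neonatal ovary and 21.9-fold in adult ovary. The Y-linked genes Eif2s3y and Uba1y were at the floor in all 3 ovaries and between 755 and 1190 in the testes. On each array 11906 to 12661 of 18193 genes exceeded the floor. Signs of RNA and array quality were not alike: neonatal ovary and adult testis had Gapdh 3' to 5' ratios of 3.12 and 2.36 (1.32 to 1.45 elsewhere). The Actb 3' to 5' ratios did not follow: adult testis was lowest at 1.81, neonatal ovary had 3.28, and the other arrays 2.91 to 3.78. The mean signals of the 9 hybridization controls were 1525 in neonatal ovary and 1170 in adult testis (2206 to 2708 elsewhere). The part of these differences in the results was not tested. In adults the median log2 ratio of 9138 autosomal genes above the floor on all arrays was 0.58, while it was 0.02 at both earlier stages, and scaling to the hybridization controls moved it to -0.27 in adults and to 0.49 in neonatal gonads. All 57 genes kept their direction at all 3 stages under that scaling, under quantile normalization and without scaling. With a floor at the 75th percentile, 11 of the 24 higher and 18 of the 33 lower genes did so.

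On these arrays more genes passed the 2-fold limit at each later stage, and the genes that did so changed. The spread between probe sets also rose, from 0.16 to 0.28 and 0.63, so the limit was not equally strict at each stage. In fetal gonads 188 autosomal genes (1.07%) were 2-fold or more higher and 310 (1.77%) lower in ovary. In neonatal gonads the counts were 1019 (5.82%) and 654 (3.73%), and in adult gonads 4628 (26.4%) and 3118 (17.8%). Of the 82 genes that were 2-fold higher in both fetal and neonatal ovary, 24 stayed so in adult ovary, 20 turned to 2-fold lower and 38 lay in between. Of the 165 that were lower at both early stages, 33 stayed lower, 69 turned to higher and 63 lay in between. As a description over 9138 genes, which share their arrays and are not independent, the log2 ratios of neonatal and fetal gonads had r = 0.41, those of adult and fetal gonads r = -0.02, and those of adult and neonatal gonads r = -0.03. The 24 higher genes were 0.137% and the 33 lower genes 0.188% of all autosomal genes. At any size, 2618 genes (14.9%) were higher at all 3 stages and 973 (5.55%) lower.

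**Figure D1:**
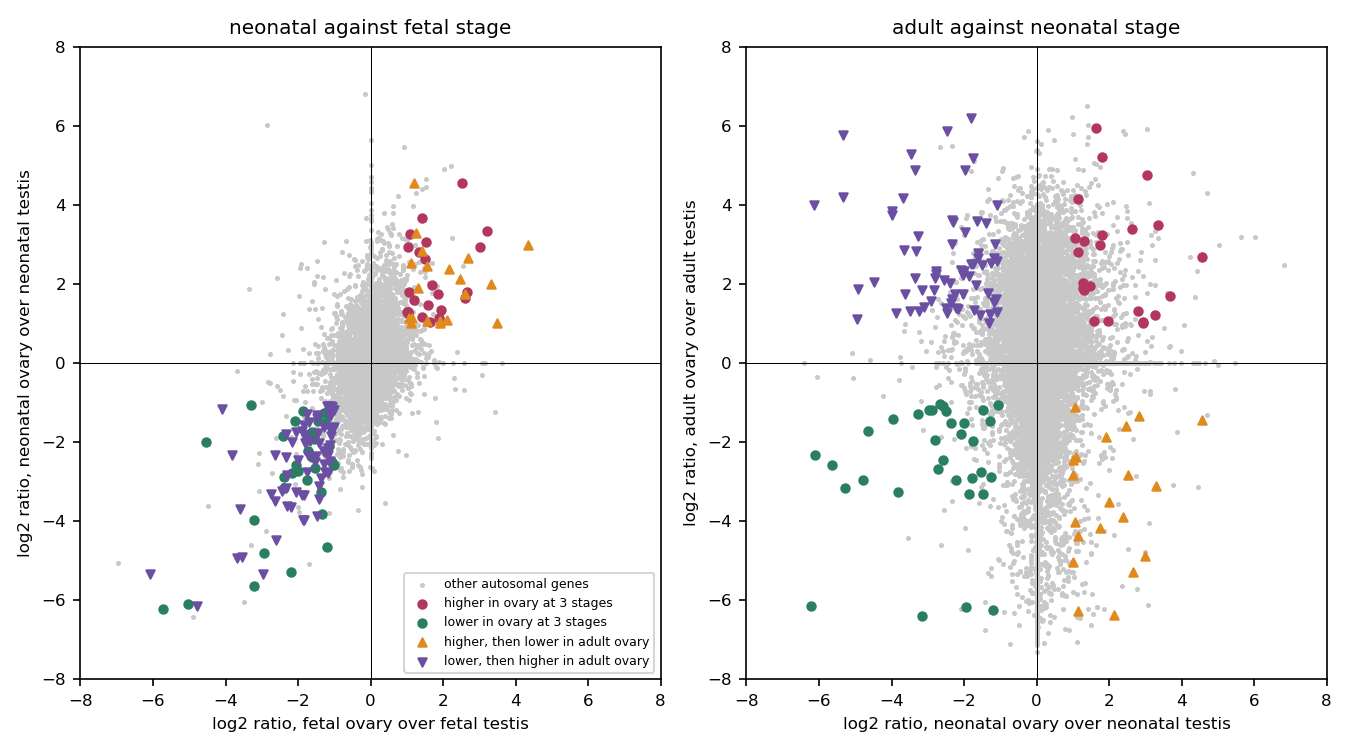
Log2 ratio of ovary over testis for autosomal genes that 1 or more arrays showed above the floor, neonatal against fetal stage (left) and adult against neonatal stage (right). Red and green circles are the 24 higher and 33 lower genes, and triangles the 20 and 69 genes that turned in adults. The cloud slopes upwards on the left and not on the right (r = 0.41 and r = -0.03 over the 9138 genes above the floor on all arrays).

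No gene passed the test across stages. Limma, which set the mean log2 ratio over the 3 stages against its spread between stages, tested 12449 genes and called none at an adjusted p of 0.05 (0% of 12005 autosomal genes in either direction). At an unadjusted p under 0.05 it listed 130 autosomal genes as higher (1.08%) and 77 as lower (0.641%). The lowest adjusted p was 0.399, for Cst9, and all others were 0.751 or more. The ages are different conditions and not replicates, and with 3 stage pairs an exact two-sided sign-flip test of 1 gene cannot go below p = 0.25. The 57 genes were chosen by the ratios given below, so these are descriptions and carry no test.

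**Figure D2:**
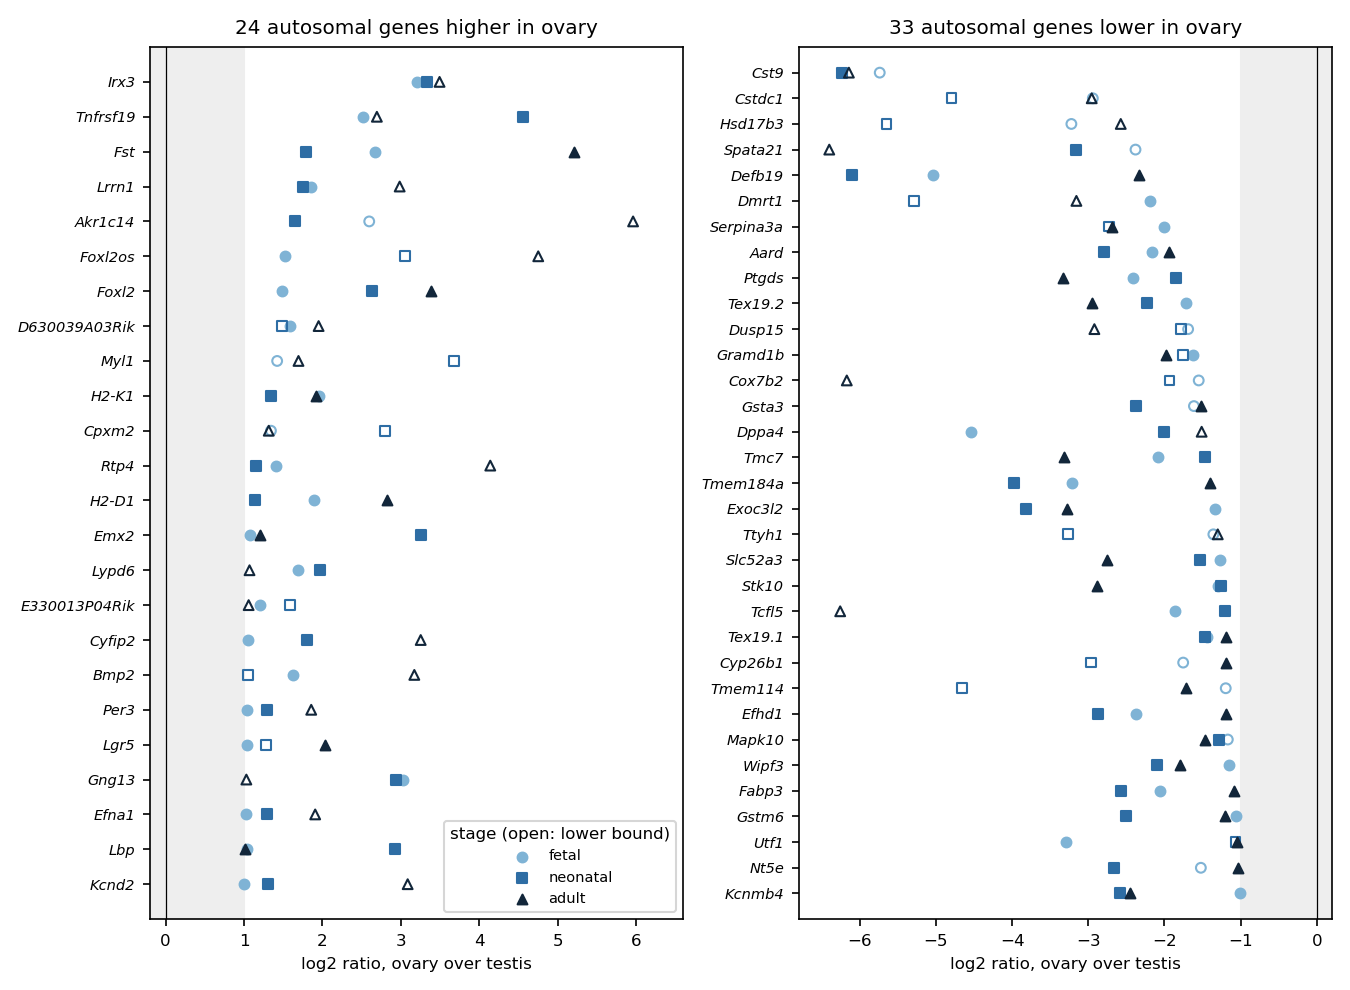
Log2 ratio of ovary over testis at each stage for the 24 genes higher (left) and 33 lower (right) in ovary, ordered by the smallest of the 3 ratios. Open symbols are lower bounds, with 1 array at the floor, and the grey band marks ratios under 2-fold. Irx3 and Cst9 lead their panels with 3 ratios close together, and most other genes spread over more than 1 log2 unit. The adult ratio of Irx3 and the fetal and adult ratios of Cst9 are bounds, so their closeness depends on the floor.

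Promoters are shown for genes that lie together or belong together and moved the same way. Cst9 and Cstdc1 encode secreted proteins related to cystatins, a family of cysteine protease inhibitors. They are neighbours on chromosome 2 with 3 annotated genes between them, among these Cst12. H2-K1 and H2-D1 encode the classical class I histocompatibility proteins, and Ptgds, the prostaglandin D synthase gene, is a known target of SOX9 in Sertoli cells. The sequences are 250 bases before to 50 after the RefSeq start, in assembly GRCm38.p6, written 5′ to 3′ on the strand of the gene. Capitals mark ACAAAG, a core bound by SOX and TCF/LEF factors, on either strand.
Cst9 (chr2:148834897-148835196, plus strand): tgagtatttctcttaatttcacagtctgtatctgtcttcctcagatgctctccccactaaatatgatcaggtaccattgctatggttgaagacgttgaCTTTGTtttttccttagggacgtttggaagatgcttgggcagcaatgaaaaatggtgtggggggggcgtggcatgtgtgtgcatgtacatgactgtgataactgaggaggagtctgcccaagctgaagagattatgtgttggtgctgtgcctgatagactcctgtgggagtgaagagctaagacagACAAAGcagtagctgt
Cstdc1 (chr2:148781759-148782058, plus strand): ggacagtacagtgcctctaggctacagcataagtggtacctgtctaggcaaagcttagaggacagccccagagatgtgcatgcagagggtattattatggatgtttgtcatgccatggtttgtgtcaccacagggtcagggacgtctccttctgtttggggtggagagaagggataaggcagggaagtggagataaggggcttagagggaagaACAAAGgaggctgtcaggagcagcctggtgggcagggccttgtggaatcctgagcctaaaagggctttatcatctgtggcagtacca
Cst12 (chr2:148789115-148789414, plus strand): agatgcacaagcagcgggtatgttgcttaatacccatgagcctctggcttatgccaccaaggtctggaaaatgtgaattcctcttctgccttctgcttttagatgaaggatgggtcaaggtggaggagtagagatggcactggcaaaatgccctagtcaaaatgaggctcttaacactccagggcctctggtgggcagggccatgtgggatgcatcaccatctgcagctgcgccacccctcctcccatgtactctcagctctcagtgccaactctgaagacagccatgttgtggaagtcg
Ptgds (chr2:25469700-25469999, minus strand): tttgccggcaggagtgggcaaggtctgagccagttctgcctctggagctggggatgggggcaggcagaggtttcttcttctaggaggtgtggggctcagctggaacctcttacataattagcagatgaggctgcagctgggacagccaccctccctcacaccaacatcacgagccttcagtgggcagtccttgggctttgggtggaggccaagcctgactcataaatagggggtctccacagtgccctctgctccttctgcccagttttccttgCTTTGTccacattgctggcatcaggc
In the next pair capitals mark the letters TATAAA on either strand, which begin at 35 from the annotated start in H2-K1 and at -26 in H2-D1, so their positions differ.
H2-K1 (chr17:34000298-34000597, minus strand): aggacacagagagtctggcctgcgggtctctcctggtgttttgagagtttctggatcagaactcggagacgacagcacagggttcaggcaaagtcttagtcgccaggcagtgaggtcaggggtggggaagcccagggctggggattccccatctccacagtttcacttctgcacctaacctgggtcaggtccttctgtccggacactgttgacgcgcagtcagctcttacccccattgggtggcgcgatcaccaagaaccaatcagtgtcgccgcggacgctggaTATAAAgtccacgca
H2-D1 (chr17:35262844-35263143, plus strand): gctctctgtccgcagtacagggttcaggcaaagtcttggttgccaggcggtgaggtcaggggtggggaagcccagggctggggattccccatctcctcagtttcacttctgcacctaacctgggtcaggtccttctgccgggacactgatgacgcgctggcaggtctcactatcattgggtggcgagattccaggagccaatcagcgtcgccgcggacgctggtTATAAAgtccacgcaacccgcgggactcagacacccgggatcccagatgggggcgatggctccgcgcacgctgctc

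The ACAAAG core begins at -152 and 34 from the start of Cst9, at -37 in Cstdc1 and at 24 in Ptgds, and these letters are not in the Cst12 window. It was held by 8 of the 26 genes lower in ovary that had a promoter entry, by 3 of the 19 higher genes with one, and by 15.5% of 13917 autosomal promoters of the same length. The forkhead core GTAAACA was in none of the members' windows and in 2.79% of all, and the NR5A1 core AAGGTCA was in 0 of 26, 1 of 19 and 3.82%. The GATA core AGATAA was in 3 of 26, 1 of 19 and 8%, TATAAA in 4 of 26, 3 of 19 and 9.77%, and the interferon-stimulated response element (ISRE) core in 5 of 26, 3 of 19 and 3.05%. All motifs were read on both strands. The promoters of H2-K1 and H2-D1 were 89.5% identical over 239 aligned bases, those of Cst9 and Cstdc1 60.9% over 274, and those of Cst9 and Cst12 59.7% over 268. A match is a description of letters and not a binding site.

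The 24 higher genes held 7 from the list of granulosa cells and the ovary-determining pathway, and 8 were on any gene list. That list held 27 and all lists together 363 of the 18193 measured genes. The lists were chosen with earlier results of these data known. Irx3, an Iroquois homeobox factor of granulosa cells, came first when genes were ordered by the smallest of their 3 ratios. Its signals were 1248 in fetal ovary against 136 in fetal testis, 873 in neonatal ovary against 86.4 in neonatal testis, and 848 in adult ovary against the floor in adult testis. The ovaries lay within a narrow range and far above every testis, with folds of 9.21, 10.1 and at least 11.3. Its log2 ratio averaged 3.34 with an SD of 0.15 over the 3 stages, the lowest SD among the 24. Both values depend on the floor, since the adult ratio is a bound.

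Foxl2, the forkhead factor that keeps granulosa cells from turning into Sertoli cells, had 532 in fetal ovary against 190 in fetal testis, 878 in neonatal ovary against 142 in neonatal testis, and 2266 in adult ovary against 217 in adult testis. Its signal was higher at each later stage in the ovaries and stayed between 142 and 217 in the testes, so the fold was 2.80, 6.20 and 10.4. Foxl2os, transcribed next to Foxl2 on chromosome 9 with no annotated gene between them, had 478 in fetal ovary against 166 in fetal testis, 625 in neonatal ovary and 2029 in adult ovary, with neonatal and adult testis at the floor. Its folds were 2.87, at least 8.31 and at least 26.9, so the neighbours went the same way at each stage. Another probe set of Foxl2 was at the floor on all 6 arrays.

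Fst encodes follistatin, which binds and blocks activin. It had 847 in fetal ovary against 133 in fetal testis, 512 in neonatal ovary against 148 in neonatal testis, and 3077 in adult ovary against 83.0 in adult testis, with folds of 6.35, 3.46 and 37.1. All 3 ovaries exceeded all 3 testes, and a second probe set of Fst was also 2-fold or more higher at all 3 stages. Bmp2, a secreted growth factor of the fetal ovary, had 337 in fetal ovary against 109 in fetal testis, and 156 and 678 in neonatal and adult ovary against testes at the floor. Its folds were 3.10, at least 2.07 and at least 9.01.

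**Figure D3:**
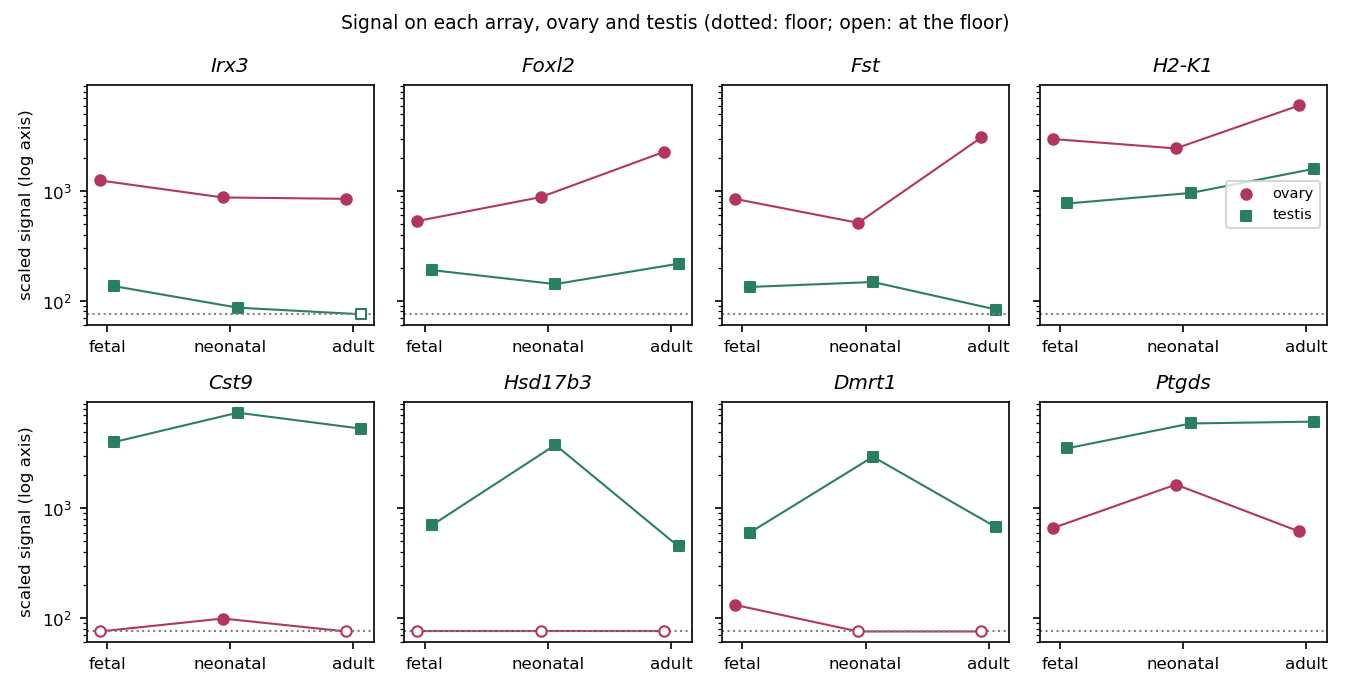
Scaled signal on a log axis for 8 genes on each array, with ovary as circles and testis as squares. Open symbols lie at the floor (dotted line, 75.3). Irx3 in ovary and Cst9 in testis keep a similar signal at the 3 stages, while Foxl2 is higher in each older ovary (532, 878 and 2266) and Hsd17b3 and Dmrt1 are highest in neonatal testis (3776 and 2945).

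Tnfrsf19, a receptor of the tumour necrosis factor family that is a target of Wnt signalling, had 2179 in fetal ovary against 381 in fetal testis, 2593 in neonatal ovary against 110 in neonatal testis, and 487 in adult ovary against the floor in adult testis. It and Irx3 were the 2 genes that were 4-fold or more higher at all 3 stages (0.0114% of autosomal genes). Lgr5, a receptor for R-spondins, had 249 in fetal ovary against 121 in fetal testis, 182 in neonatal ovary against the floor, and 332 in adult ovary against 81.3 in adult testis. Lypd6, a membrane-anchored protein that enhances Wnt signalling, had folds of 3.21, 3.91 and at least 2.10. Emx2, a homeobox factor needed to form the gonad, had 1809 in fetal ovary against 856 in fetal testis, 1413 in neonatal ovary against 148 in neonatal testis, and 674 in adult ovary against 292 in adult testis. Its fold of 9.56 at the neonatal stage stood far above the 2.11 and 2.31 at the others.

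Class I histocompatibility genes, whose products present peptides to T cells, were a pair among the members. H2-K1 had 2975 in fetal ovary against 770 in fetal testis, 2442 in neonatal ovary against 959 in neonatal testis, and 6013 in adult ovary against 1592 in adult testis. H2-D1 had 2053 in fetal ovary against 554 in fetal testis, 2075 in neonatal ovary against 942 in neonatal testis, and 5276 in adult ovary against 747 in adult testis. In both genes the lowest ovary exceeded the highest testis, with folds from 2.20 to 7.06. Both rest on probe sets that can bind transcripts of related class I genes, so the values belong to the family rather than to either gene. When such probe sets were omitted, H2-K1 was no longer measured. H2-D1 then kept its direction at all 3 stages but passed 2-fold only in adults, with log2 ratios of at least 0.78, 0.67 and 2.45. Rtp4, an interferon-induced receptor transporter, had folds of 2.66, 2.23 and at least 17.6.

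Among enzymes, Akr1c14, which reduces steroids such as progesterone derivatives, had 455, 1293 and 4691 in fetal, neonatal and adult ovary, against the floor, 414 and the floor in the testes. Its SD over stages of 2.27 was the highest of the 24, and its adult fold was at least 62.3. Akr1c genes lie in a family of close copies, so the probe set may read others of them. Cpxm2, a carboxypeptidase-like protein, and Myl1, a myosin light chain of striated muscle, were at the floor in all 3 testes, the only 2 of the 24 for which this held. Cpxm2 had 191, 525 and 187 in fetal, neonatal and adult ovary, and Myl1 had 202, 962 and 244, so both were highest in neonatal ovary. Lrrn1, a neuronal leucine-rich repeat protein, had folds of 3.61, 3.37 and at least 7.92, and D630039A03Rik, a locus without an established role, at least 2.79 in neonatal and at least 3.87 in adult gonads.

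The remaining higher genes lay close to the limit in at least 1 stage. Gng13, a G protein gamma subunit, had 915 in fetal ovary against 112 in fetal testis and 776 in neonatal ovary against 101 in neonatal testis, and only 154 in adult ovary against the floor. E330013P04Rik, Cyfip2 (a regulator of actin), Per3 (a clock gene), Efna1 (an ephrin ligand), Lbp (a binder of bacterial lipopolysaccharide) and Kcnd2 (a potassium channel) had smallest folds of 2.08 or less. Apart from Kcnd2, these were named after their values were seen, to account for every member. Kcnd2 was the last inside the limit, with a log2 ratio of 1.00 in fetal gonads, and Lgals3, a galectin, lay just outside with 0.998 in fetal gonads, 1.70 in neonatal and 4.50 in adult gonads.

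Epithelial transcripts were higher in neonatal ovary as well. Of 14 measured markers of mesonephros, duct and oviduct epithelium, 12 were 2-fold or more higher in neonatal ovary, against 1 in fetal and 6 in adult ovary. Over all 18193 genes, 211, 1055 and 4901 were 2-fold or more higher in fetal, neonatal and adult ovary. The median log2 ratios of the 14 markers were 0.05 in fetal, 2.90 in neonatal and 0.00 in adult gonads. Their summed signal was 23457 in neonatal ovary against 2802 in neonatal testis. Krt19 had 3556 in neonatal ovary against 190 in neonatal testis, and Ovgp1, the oviduct glycoprotein, 1961 against 75.6. Foxj1, which marks ciliated cells, was at the floor in neonatal ovary. Of the 24 higher genes, 7 had their largest ratio at the neonatal stage, a count not given here over all genes. Among them were Emx2 (a member of that marker list), Tnfrsf19, Myl1, Cpxm2 and Lbp, and the part of such tissue in their values was not tested.

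In adults, genes of vessels, matrix and macrophages were higher in ovary as well. All 12 endothelial genes, all 15 extracellular matrix genes and 10 of 13 macrophage genes were 2-fold or more higher in adult ovary, with median log2 ratios of 1.98, 2.98 and 2.72, against a median of 0.22 for all genes that exceeded the floor on any array. Scaling to the hybridization controls left 9 of 12, 12 of 15 and 9 of 13. In fetal gonads none of the genes on these lists reached 2-fold. Of the 24 higher genes, 15 had their largest ratio at the adult stage and 17 had adult testis at the floor. Over all 17516 autosomal genes, 4628 (26.4%) were 2-fold higher in adult ovary, against 188 (1.07%) in fetal ovary. In adult testis 12460 of 18193 genes exceeded the floor. The stage of the largest ratio is not given over all genes, and how much the makeup of adult testis contributed was not tested.

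Of 27 measured genes of granulosa cells and the ovary-determining pathway, 14 were higher in ovary at all 3 stages, 7 of them by 2-fold or more each time (Foxl2, Fst, Bmp2, Irx3, Lgr5, Emx2 and Gng13), and none was lower at all 3. Over all 18193 genes 2736 were higher throughout, 27 of them by 2-fold or more. The lists were chosen with earlier results of these data known, so these counts are descriptions and carry no test. Wnt4, the ovarian Wnt ligand, had 2124 in fetal ovary against 1476 in fetal testis, 1275 in neonatal ovary against 406 in neonatal testis, and 2477 in adult ovary against the floor, so that its fetal ratio of 0.53 (log2) kept it outside the 2-fold limit. Rspo1, the ligand of Lgr5, had log2 ratios of 0.79, 2.72 and at least 1.68, and Axin2, a feedback target of Wnt signalling, 0.85, 1.74 and 2.12. Of 24 measured Wnt and R-spondin genes, 10 were higher at all 3 stages, none lower, and 1 (Lgr5) by 2-fold throughout. Their median log2 ratios were 0.17, 0.79 and 2.03 in fetal, neonatal and adult gonads, but 0.09, 1.26 and 1.15 with scaling to the hybridization controls, where the adult median did not exceed the neonatal one.

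Other genes of the granulosa list did not keep their side. Inha, Inhba and Hsd17b1 were 2-fold or more lower in fetal and neonatal ovary and higher in adult ovary. Fshr, the receptor for follicle-stimulating hormone, had log2 ratios of at most -0.29 in fetal, -2.63 in neonatal and 1.52 in adult gonads. Amhr2, the receptor of the Müllerian inhibitor, had 3878 in fetal ovary against 1756 in fetal testis, 3778 in neonatal ovary against 4101 in neonatal testis and 5296 in adult ovary against 5352 in adult testis. It was 2.21-fold higher in fetal ovary and differed by 1.09-fold or less at the later stages.

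**Figure D4:**
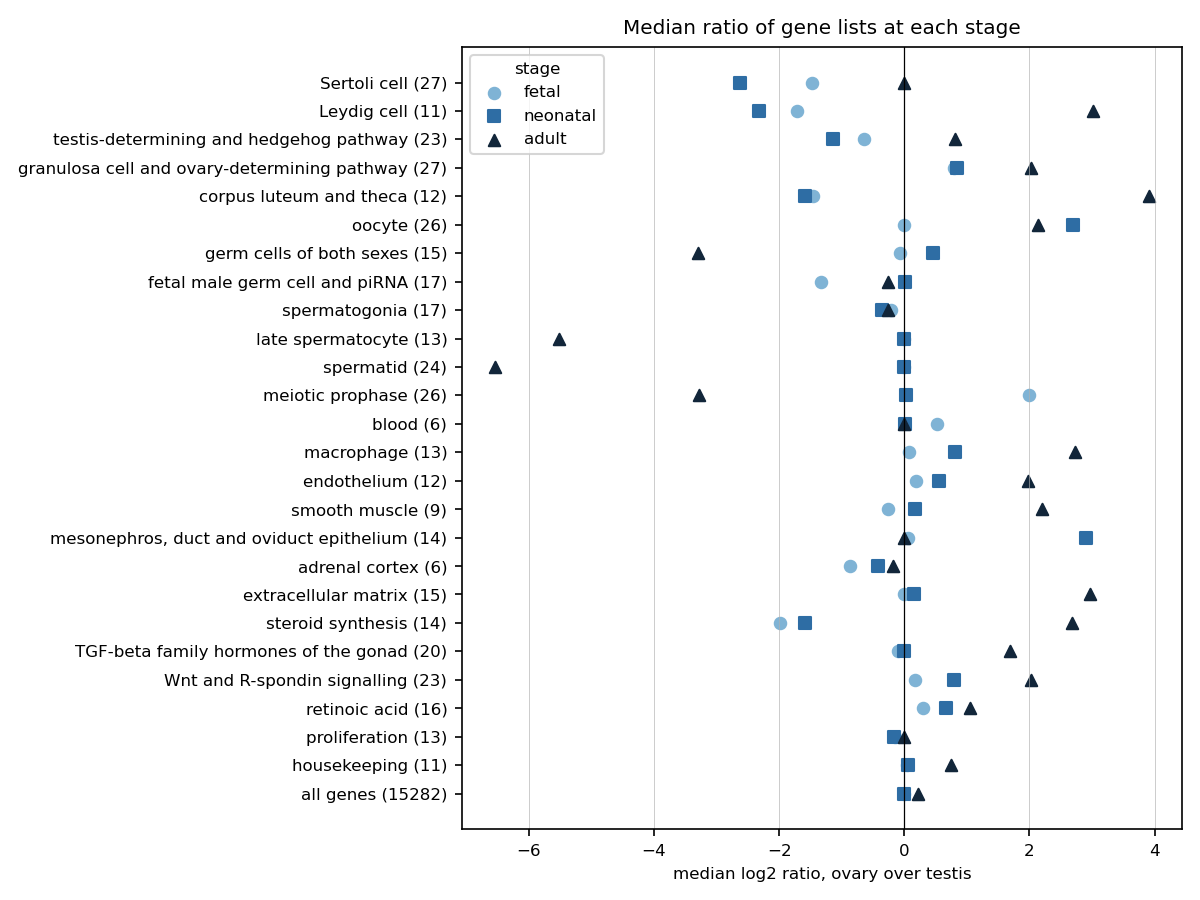
Median log2 ratio of ovary over testis at each stage for 25 gene lists and all genes, with the number of members that exceeded the floor on any array in brackets. The granulosa list lies above 0 at all 3 stages (0.79, 0.84 and 2.03), and the Sertoli list at -1.48, -2.63 and 0.00 (in adults -0.87 with scaling to the hybridization controls).

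The 33 lower genes were led by products of Sertoli cells. Cst9, or testatin, is a cystatin-related protein made by Sertoli cells. It was at the floor in fetal and adult ovary and at 98.8 in neonatal ovary, against 4017, 7425 and 5319 in fetal, neonatal and adult testis. It was at least 53.4-fold, 75.1-fold and at least 70.6-fold lower in ovary. Its mean log2 ratio was -6.04 with an SD of 0.26 over the stages, and both depend on the floor, since the fetal and adult ratios are bounds. No other autosomal gene had a smallest ratio as large as that of Cst9. Cst9 was 1 of 7 genes that were 4-fold or more lower at every stage (0.04% of autosomal genes). Cstdc1 was at the floor in all 3 ovaries and had 578, 2091 and 584 in the testes. Cst12, between them, had 509 in fetal ovary against 600 in fetal testis, 1256 in neonatal ovary against 11092 in neonatal testis and 1606 in adult ovary against 5167 in adult testis, so the fetal pair kept it out of the set. Cst3, the widely expressed cystatin C of the same region, differed by 1.95-fold or less at every stage.

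Hsd17b3 encodes the enzyme that makes testosterone from androstenedione, in fetal Sertoli cells and adult Leydig cells. It was at the floor in all 3 ovaries and had 702, 3776 and 448 in fetal, neonatal and adult testis, so it was at least 9.33-fold, 50.2-fold and 5.95-fold lower. Dmrt1, the factor that keeps testis identity in Sertoli cells and acts in germ cells, had 131 in fetal ovary and was at the floor in neonatal and adult ovary, against 600, 2945 and 671 in the testes. Both were brightest in neonatal testis, and in both the weakest testis exceeded every ovary.

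Ptgds had 659, 1644 and 614 in fetal, neonatal and adult ovary, against 3520, 5924 and 6156 in the testes. It was above the floor on every array, its folds were 5.34, 3.60 and 10.0, and a second probe set was also 2-fold or more lower at all 3 stages. Aard, a small protein of Sertoli cells, had 773, 1096 and 1144 in the ovaries, against 3471, 7576 and 4378 in the testes. Defb19, a defensin-like gene of Sertoli cells, had 130, 103 and 1006 in the ovaries, against 4252, 7105 and 5065 in the testes, so that its fold was 32.8 and 68.8 at the early stages and 5.03 in adults. Aard, Ptgds and Defb19 stayed above the floor in every ovary, and Cstdc1 and Hsd17b3 in none. Serpina3a, a serine protease inhibitor from a large family of copies, had folds of 4.02, at least 6.63 and 6.46, and Gsta3, a glutathione transferase from another such family, at least 3.06, 5.16 and 2.88.

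Of 27 measured Sertoli genes, 11 were lower in ovary at all 3 stages, 7 of them by 2-fold or more (Ptgds, Cst9, Aard, Defb19, Gstm6, Hsd17b3 and Dmrt1), and 1 was higher throughout (Wt1, the Wilms tumour factor, at 0.65, 0.58 and 1.01 on the log2 scale). Over all 18193 genes, 997 were lower throughout, 38 of them by 2-fold or more, and 326, 692 and 3218 were 2-fold lower in fetal, neonatal and adult ovary. Of the Sertoli genes, 17 were 2-fold lower in fetal ovary, 22 in neonatal ovary and 9 in adult ovary, where 9 others were higher. With scaling to the hybridization controls, 13 were lower and 5 higher in adult ovary. Sox9, the factor that starts Sertoli differentiation, was at the floor, 80.6 and 93.9 in fetal, neonatal and adult ovary against 135, 418 and the floor in the testes, and did not keep its direction. Mmd2 and Tesc, expressed in Sertoli cells, were at least 11.3-fold and at least 22.2-fold lower in fetal ovary, and in adults Mmd2 differed by 1.27-fold and Tesc was 1.98-fold higher.

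Germ cell genes made a smaller group among the 33. Dppa4, a chromatin factor of pluripotent and primordial germ cells, had 147 in fetal ovary against 3426 in fetal testis, 213 in neonatal ovary against 857 in neonatal testis, and in adult ovary only the floor against 215 in adult testis. Its fold was largest in fetal gonads at 23.3 and then 4.02 and at least 2.85. Tex19.1 and Tex19.2, neighbours on chromosome 11 with no annotated gene between them, restrain mobile elements in germ cells. Tex19.2 had 109, 142 and 86.4 in fetal, neonatal and adult ovary, against 360, 668 and 670 in the testes. Tex19.1 had 356, 353 and 148 in the ovaries, against 965, 979 and 340 in the testes, with folds of 2.71, 2.77 and 2.29 and an SD of 0.15, the lowest of the 33. Since the 2 are close copies, their values may not be fully separate. Of 17 measured genes of fetal male germ cells and the piRNA pathway, 10 were 2-fold lower in fetal ovary, 2 in neonatal and 8 in adult ovary, and 2 (Dppa4 and Utf1) at all 3 stages. In the other direction, none was 2-fold higher in fetal ovary, 3 were in neonatal ovary and 1 was in adult ovary. The median log2 ratios were -1.33, 0.01 and -0.26 in fetal, neonatal and adult gonads. Over all 18193 genes, 326, 692 and 3218 were 2-fold lower in fetal, neonatal and adult ovary, and 38 at all 3 stages.

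Retinoic acid was represented by Cyp26b1, the enzyme that degrades it in the fetal testis. Its signals were at the floor in fetal and neonatal ovary and 93.0 in adult ovary, against 254, 587 and 213 in the testes. The ovaries were lower by at least 3.37-fold before birth, by 7.79-fold or more at the neonatal stage and by 2.29-fold in adults. Among 18 measured retinoic acid genes Cyp26b1 was the 1 that was lower at all 3 stages, and 4 were higher at all 3. Over all 18193 genes, 997 were lower and 2736 higher at all 3 stages. Stra8, induced by retinoic acid at the start of meiosis, had 1047 in fetal ovary against 96.8 in fetal testis, and was at the floor in neonatal and adult ovary against 178 and 253 in the testes. The synthesising enzyme Aldh1a2 had log2 ratios of 0.46, 2.02 and -0.68.

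A further group was brightest in adult testis. Spata21, a spermatogenesis-associated gene, was at the floor in fetal and adult ovary and at 93.4 in neonatal ovary, against 392, 831 and 6358 in fetal, neonatal and adult testis. Cox7b2, a testis form of a cytochrome oxidase subunit, was at the floor in all 3 ovaries, against 220, 287 and 5421 in the testes. Tcfl5, a factor of spermatocytes, had 281 and 268 in fetal and neonatal ovary and was at the floor in adult ovary, against 1018, 619 and 5757 in the testes. In all 24 measured spermatid genes adult ovary was 2-fold or more lower, with a summed signal of 908 in adult ovary against 174699 in adult testis. The sum was 1058 in fetal ovary against 1134 in fetal testis and 1468 in neonatal ovary against 1120 in neonatal testis. Over all 18193 genes, 3218 were 2-fold or more lower in adult ovary. The part of spermatids in the values of Spata21, Cox7b2 and Tcfl5 was not tested. The Tcfl5 probe set can bind other transcripts, and the gene was lost when such probe sets were omitted.

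Dusp15, a phosphatase, was the fifth gene at the floor in all 3 ovaries beside Cstdc1, Hsd17b3, Cox7b2 and Ttyh1, and had 243, 259 and 570 in fetal, neonatal and adult testis. Gramd1b, a carrier of cholesterol between membranes, had 123 in fetal ovary, the floor in neonatal ovary and 825 in adult ovary, against 380, 254 and 3237 in the testes, but its other probe set was higher in adult ovary by 0.69 on the log2 scale. Further lower genes, named after their values were seen to account for every member, were Tmc7, Tmem184a, Exoc3l2, Ttyh1, Slc52a3, Stk10, Tmem114, Efhd1, Mapk10, Wipf3, Fabp3 and Nt5e, and the same holds for Tcfl5 and Tex19.1 above. Tmem184a reached 15.7-fold lower in neonatal ovary, with 198 against 3109 in neonatal testis, and Exoc3l2, an exocyst-like protein, 14.1-fold, with 143 against 2005. Slc52a3, a riboflavin transporter, Wipf3, a regulator of actin, Fabp3, a fatty acid carrier, and Nt5e, which produces adenosine, had smallest folds of 2.41, 2.22, 2.12 and 2.05. Kcnmb4, a potassium channel subunit, was the last inside the limit at a log2 ratio of -1.01 in fetal gonads, and C1qtnf3, a secreted C1q-like protein, lay just outside at -0.98 in adult gonads.

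Of the 33 lower genes, 20 had their largest ratio at the neonatal stage, 11 in adults and 2 in fetal gonads, and 17 were brightest in neonatal testis and 14 in adult testis. Of the 24 higher genes, 15 had their largest ratio in adults, 7 at the neonatal stage and 2 in fetal gonads. Over all autosomal genes, 310, 654 and 3118 were 2-fold lower in fetal, neonatal and adult ovary, and 188, 1019 and 4628 higher. The stage of the largest ratio or signal is not given over all genes, so these counts do not set the members apart. In the 5 lower genes with all 3 ovaries at the floor, the stage of the largest ratio follows the testis signal alone. The SD of the 3 log2 ratios had a median of 1.03 over the 24 higher and 0.87 over the 33 lower genes, beside 0.74 over 14714 autosomal genes that exceeded the floor on any array. By position, 7 of the 33 lower genes lay on chromosome 2 (21.2%), which holds 8.03% of the autosomal genes, among them Cst9, Cstdc1, Defb19, Dusp15, Ptgds and Slc52a3. No test of position was made.

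The 57 genes rest on 1 probe set each, and other probe sets of the same gene bear on them. For 16 of the 24 higher genes there were 35 others. Of these, 17 were at the floor on all arrays, 10 had the same direction at all 3 stages and 2 had an opposite stage. Only 4, in 3 genes, were 2-fold or more higher at all 3 stages. For 11 of the 33 lower genes there were 16 others. Of these, 8 were at the floor, 4 had the same direction throughout and 1 (of Gramd1b) had an opposite stage. Only 1 was 2-fold or more lower at all 3 stages.

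**Figure D5:**
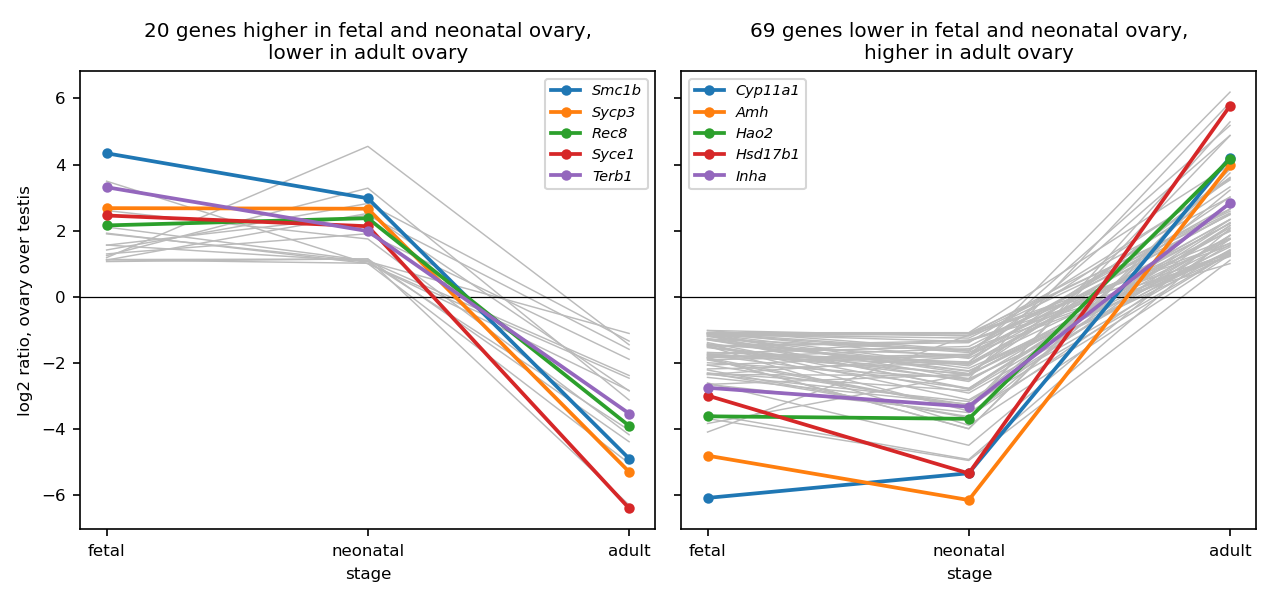
Log2 ratio of ovary over testis by stage for genes that turned between neonatal and adult gonads, 20 from higher to lower (left) and 69 from lower to higher (right). The first 5 of each are coloured and named, others grey. Smc1b lies at 4.34, 2.98 and -4.89, and Cyp11a1 at -6.07, -5.33 and 4.21.

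As a counterpart, 20 genes (0.114%) were 2-fold higher in fetal and neonatal ovary and 2-fold lower in adult ovary, and 69 (0.394%) the reverse. The first set held 6 of the 26 measured meiotic prophase genes. Of these 26 genes, 21 were 2-fold higher in fetal ovary, 6 in neonatal ovary and none in adult ovary, where 23 were lower. Over all 18193 genes, 211, 1055 and 4901 were 2-fold higher in fetal, neonatal and adult ovary, and 3218 were lower in adult ovary. Sycp3, an axis protein of meiotic chromosomes, had 3715 in fetal ovary against 578 in fetal testis, 3051 in neonatal ovary against 481 in neonatal testis and 104 in adult ovary against 4067 in adult testis. The second set held steroid and hormone genes. Amh, the Müllerian inhibitor made by Sertoli cells and later by granulosa cells, was at the floor in fetal and neonatal ovary against 2093 and 5304 in the testes, and had 1197 in adult ovary against the floor in adult testis. Cyp11a1, which starts steroid synthesis, was at the floor in fetal and neonatal ovary against 5071 and 3025 in the testes, and had 11368 in adult ovary against 612 in adult testis. Steroid genes as a list gave 6 of 14 that turned this way, and Hsd17b3 (lower) and Akr1c14 (higher) as the pair that kept its side by 2-fold or more.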

How the data were processed

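RNA of 6 gonad samples was measured on 1 array each. The authors' deposited table holds 1 linear intensity value per probe set and array (45101 probe sets). The submitters' processing notes list GCOS 1, Affymetrix's array software, while no source used here gives its background correction, probe summary or scaling. The number of arrays limits the precision.

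Arrays were scaled to a common 2% trimmed mean (factors 0.913 to 1.26), floored at the pooled median and taken to log2. Probe sets with 1 symbol in the platform annotation (34945) were used, 932 with several symbols and 9160 without one were not, and 64 controls served as checks. The probe set with the highest mean signal stood for each of 18193 genes, of which 18145 were found in RefSeq GRCm38.p6, the source of current symbols, chromosomes, gene order and promoters. Limma 3.58.1 in R 4.3.3 fitted log2 signal on stage (a block) and gonad, with an intensity trend and Benjamini-Hochberg adjustment over 12449 genes whose mean lay more than 0.5 above the floor (log2). It was tested on simulated data. Figures used matplotlib 3.10.9 and promoter alignments Biopython 1.88.

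The genes to describe and the 27 gene lists (412 genes, 363 measured) were chosen with earlier results of these data known. List genes without a measured value, such as Cyp19a1, Lhcgr and Insl3, are not analysed here. Named genes were, per direction, the first 15 autosomal genes that were 2-fold or more in the same direction at all 3 stages, by the smallest of the 3 ratios, those past an adjusted p of 0.05, the first 5 that turned, members of the lists, and the genes just inside and outside the limit. Alternatives were other scalings, other floors, 16 added in place of a floor, the mean of all probe sets, leaving out probe sets marked as cross-hybridizing, other limma settings, and omission of each stage in turn.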

Additional observations from a re-analysis of the deposited data

Results flagged for a closer look

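Genes whose ratio took opposite directions at different ages stood out, although with 1 array per group the difference between stages was not tested. They number 20 autosomal genes that were 2-fold or more higher in ovary at the fetal and neonatal stages and lower in adults, and 69 with the reverse. The set that was lower in adults is led by genes of meiotic chromosomes. In adults the log2 ratio of ovary over testis was -4.89 for Smc1b, a cohesin subunit, -5.28 for Sycp3, -3.90 for Rec8, another cohesin subunit, -6.39 for Syce1 of the synaptonemal complex and -3.52 for Terb1, which tethers telomeres. The other direction is led by hormone and steroid genes. Their adult log2 ratios were 4.21 for Cyp11a1, 3.99 for Amh, 4.17 for Hao2, a peroxisomal oxidase, 5.78 for Hsd17b1, which makes oestradiol, and 2.84 for Inha, the inhibin alpha chain. The values of Smc1b, Syce1, Terb1, Amh and Hsd17b1 are bounds, since an adult array was at the floor.

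Outside the genes analysed, the arrays carry 9160 probe sets without a gene symbol. Of these, 3 were 2-fold or more higher in ovary at all 3 stages (0.0328%) and 4 lower (0.0437%).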

How the results depend on the processing

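All 24 higher and 33 lower genes kept their direction at all 3 stages under quantile normalization, without scaling and with scaling to hybridization controls. With a floor at the 75th percentile, 11 of the 24 and 18 of the 33 did so. How many passed the 2-fold limit also depended on the settings. The 24 became 15 with hybridization controls and 12 with the mean of all probe sets, which held 13 and 11 of the 24. Emx2, Lgr5 and Gng13 fell below the limit with hybridization controls and under quantile normalization. Foxl2, Tnfrsf19, Lrrn1, Lgr5 and Gng13 did so with the mean of all probe sets. The 24 became 48 with a floor at the 25th percentile and 3 at the 75th. The 33 became 65 and 5 with those floors. With 16 added they became 66, which held 30 of the 33, and with hybridization controls 43, which held 26. With 1 stage left out, which asks less of a gene by construction, the counts were 42 to 378 higher and 66 to 165 lower. The share of higher among the 2-fold genes was 42.1%, against 25.9% with hybridization controls and 33.3% with the mean of all probe sets. The 20 genes that turned to lower in adults became 13 without scaling, 48 and 3 with the lower and upper floor, 39 with 16 added and 12 with the mean of probe sets, and the 69 that turned to higher became 40 with hybridization controls and 28 with the upper floor. Of the genes that turned, 22.5% went to lower, against 38.5% with hybridization controls, 34.3% with the lower floor and 9.68% with the upper. At any size, the upper floor left 1565 higher and 547 lower genes, 16 added gave 1881 lower, and leaving out a stage gave 4063 to 4191 and 1700 to 3107. Limma without the stage block (no replicate block) called 1 gene, Cst9, lower (adjusted p = 0.016), and the other fits called none, with adjusted p of Cst9 from 0.249 to 0.968. The cause of these changes was not tested.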

Other observations

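Sex chromosome genes were outside the comparison above. Of 618 X-linked genes, 3 were 2-fold or more higher in ovary at all 3 stages (0.485%), namely Xist, Alg13, an enzyme of protein glycosylation, and Ofd1, a protein of the centrosome and cilium. Another 3 were lower (0.485%), namely Nxf2, a nuclear RNA export factor of germ cells, AU015836, and Cited1, a transcriptional co-regulator. Alg13 had 408, 443 and 197 in fetal, neonatal and adult ovary, against 94.6, 148 and the floor in the testes. Nxf2 had 83.6 and 84.7 in fetal and neonatal ovary and the floor in adult ovary, against 624, 291 and 208 in the testes. Cited1 had 221, the floor and 99.2 in the ovaries, against 471, 1462 and 358 in the testes. Apart from Xist, these genes were named after their values were seen.

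No gene of the oocyte list was 2-fold higher at all 3 stages, although 17 of 26 were in neonatal ovary and 19 in adult ovary. Over all 18193 genes, 1055 and 4901 were 2-fold higher in neonatal and adult ovary. Zp3, which encodes a protein of the egg coat, was at the floor in fetal ovary and had 1509 and 2126 in neonatal and adult ovary, against the floor in all 3 testes. Figla, which controls such genes, had 352, 2405 and 87.0 in fetal, neonatal and adult ovary, against the floor, the floor and 89.7 in the testes.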
